A study of Mus musculus with 9 samples.

Results

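The genes described here are the ADF/cofilin genes of the mouse and the enzymes that switch their proteins off and on, measured in whole corneas with and without Dstn. The set has 9 members of 22180 genes measured: Dstn, Cfl1 and Cfl2 for the actin-binding proteins, Limk1, Limk2 and Tesk1 for kinases, and Ssh1, Ssh2 and Ssh3 for phosphatases. Members were chosen by name, with earlier results of these data known. Each is represented by the brightest array row whose annotation gives that symbol alone. All 9 had such a row. The rescued group carried the corn1 mutation of Dstn together with genetic ablation of Srf from the epithelium of the cornea. The mutant group carried the corn1 mutation alone, and WT mice were the wild-type controls. There were 3 pools per group, of 10 corneas from 5 mice, on a mixed background drawn from 129, A.BY, FVB, Swiss Black and C57BL6/J. Every mouse, WT included, was injected with doxycycline from postnatal day 28 to 58 and was 58 days old at collection. The sources used here do not name the driver of the Srf ablation or its promoter, or say whether mutant and WT mice also carried it. The values are log2 intensities, and a unit of 1 is a doubling of the measured intensity. A gene was called different at an adjusted p under 0.05 across all 22180 genes (limma).

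Destrin (the product of Dstn, also called ADF), cofilin-1 (Cfl1) and muscle cofilin (Cfl2) bind actin filaments, sever them and speed the loss of subunits. LIM kinases and testicular protein kinases inactivate all of them by phosphorylating a serine near the amino terminus, and the slingshot phosphatases remove that phosphate. The state of actin in turn controls transcription, because MRTF coactivators held by monomeric actin are released to serum response factor (SRF) when filaments form. The corn1 allele is a loss of Dstn in which the corneal epithelium thickens and accumulates actin filaments. The arrays measure RNA, so neither the amount of these proteins nor their phosphorylation was measured.

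Dstn itself was at log2 intensities of 5.61, 5.62 and 5.63 in the rescued pools, 5.55, 5.80 and 5.54 in the mutant pools, and 12.58, 12.55 and 12.59 in the WT pools. The rescued and mutant pools lay together at the low level and every WT pool lay far above them. The mutant level was at least 123-fold below WT and the rescued level at least 124-fold below. These are lower bounds because the rescued and mutant levels lie below 6.77, the median of all array rows, where signal above background is not shown. Between the rescued and mutant pools the log2 difference was −0.01 (95% interval −0.18 to 0.16, adjusted p = 0.96). Srf, the ablated gene, was at 9.14, 9.45 and 8.45 in the rescued pools, 10.77, 10.72 and 10.55 in the mutant pools and 9.23, 8.98 and 9.17 in the WT pools. The rescued pools overlapped the WT pools in Srf and all lay below the mutant pools. In whole corneas, less Srf RNA in each cell and fewer cells that express it cannot be told apart, and the same holds for every gene below.

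Both cofilin genes rose in mutant corneas, Cfl2 by 2.28-fold and Cfl1 by 2.03-fold, and both were lower again in the rescued corneas. Of the kinases none was called in any comparison. Of the phosphatases Ssh1 and Ssh2 rose by about the same factor in the mutant, 1.34-fold each, and Ssh3 was not called. With Dstn counted, 5 of 9 genes were called between mutant and WT, against 31.6% of all genes, 2 of 9 between rescued and mutant, against 13.3%, and 4 of 9 between rescued and WT, against 13.7%. An F test over the 3 groups called 5 of the 9, Dstn, Cfl1, Cfl2, Ssh1 and Ssh2, against 29.4% of all genes. Dstn is the mutated gene, and counts of calls without it are given next.

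Of the 8 genes other than Dstn, 4 were higher and none was lower in the mutant than in WT, beside 15.1% of all genes higher and 16.5% lower. In the rescued corneas 2 of the 8 were lower and none was higher than in the mutant, beside 6.88% of all genes lower and 6.46% higher. Between rescued and WT corneas 3 of the 8 were higher and none was lower, beside 6.28% and 7.43% of all genes. By separation of the pools, 6 of the 8 lay above WT in every mutant pool and 1 below, beside 21.0% and 23.7% of all genes. Against the mutant, 4 of the 8 lay lower in every rescued pool, beside 17.1% of all genes, and none lay higher, beside 15.1%. Against WT, 5 of the 8 lay higher in every rescued pool and 1 lower, beside 13.4% and 18.2% of all genes. The median log2 difference of these 8 genes between mutant and WT was 0.29, and that of all genes was −0.02. The 3 comparisons share their arrays, so their counts are not independent of one another.

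**Figure D1:**
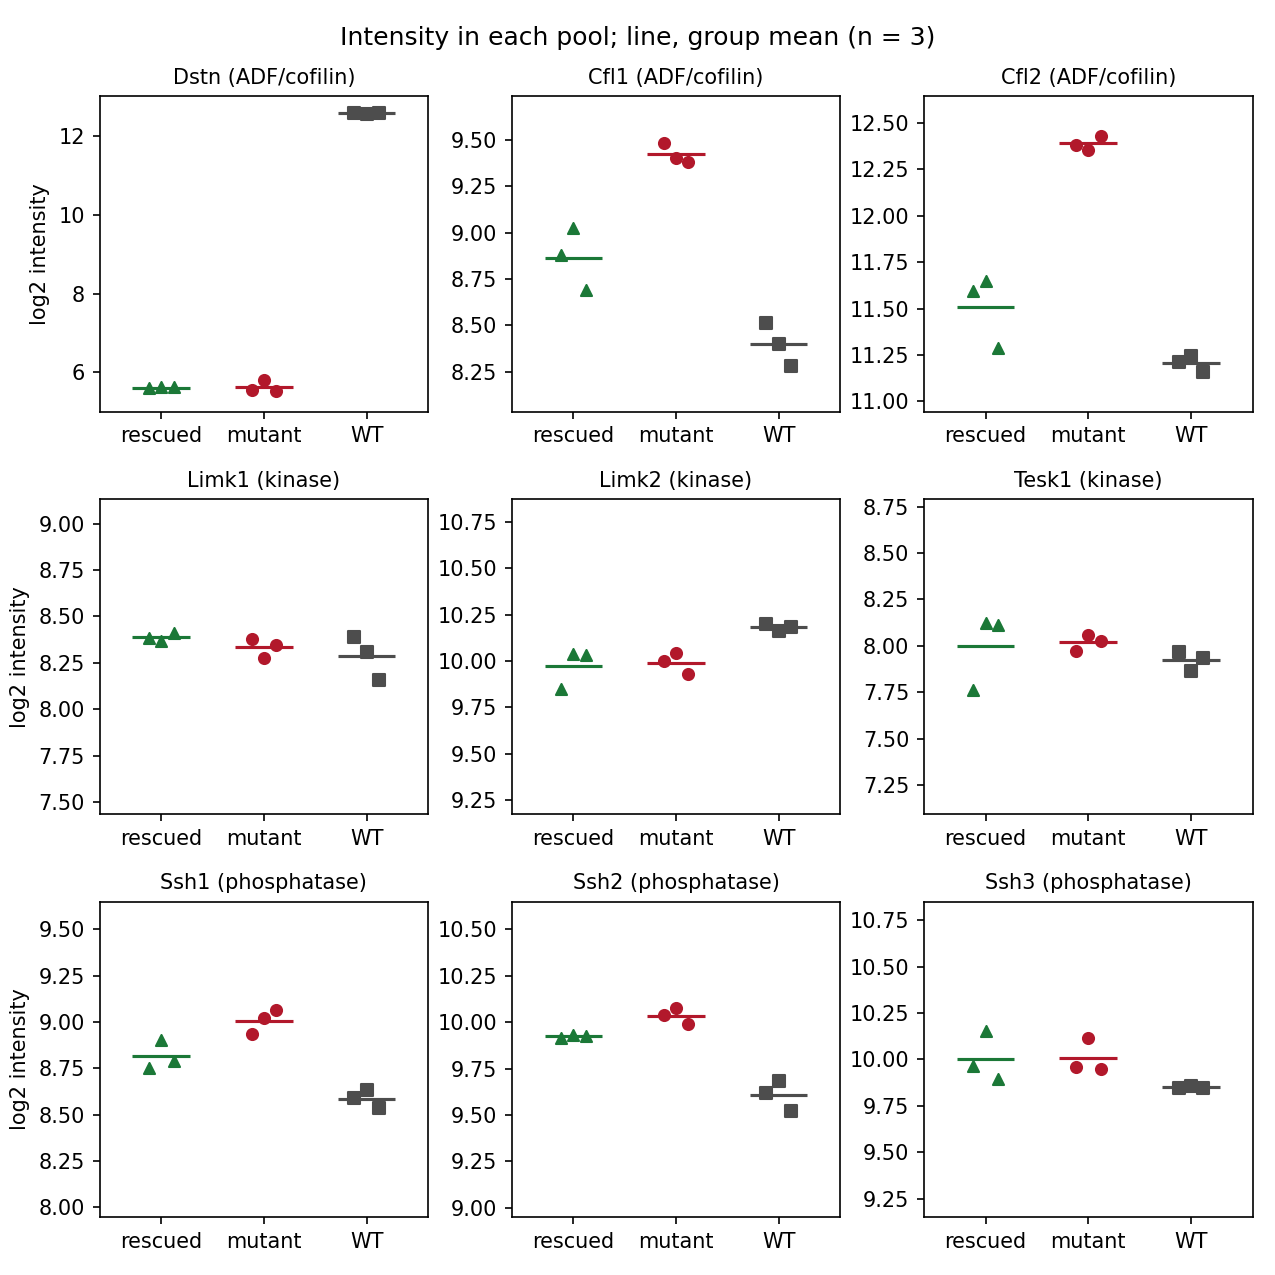
Log2 intensity of each of the 9 genes in every pool, with rescued, mutant and WT pools from left to right and a line at each group's mean (n = 3). All panels but that of Dstn share 1 length of scale. Dstn is below 5.81 in rescued and mutant pools, Cfl1 and Cfl2 are highest in mutant pools, and the widest range of a kinase gene over the 9 pools is 0.36 units.

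Cfl1, the gene for the cofilin of most non-muscle cells, had log2 intensities of 9.49, 9.40 and 9.38 in the mutant pools and 8.51, 8.40 and 8.28 in the WT pools. No mutant pool reached down to a WT pool. The log2 difference was 1.02 (SE 0.09, 95% interval 0.81 to 1.24, adjusted p = 3.21e-05). It was larger than the difference of 97.1% of all genes tested. In the rescued pools Cfl1 was at 8.88, 9.03 and 8.69, between the mutant and WT pools and overlapping neither. The rescued level was 1.47-fold lower than the mutant level (log2 difference −0.56, SE 0.09, adjusted p = 0.00433). It was 1.38-fold higher than the WT level (log2 difference 0.47, SE 0.09, adjusted p = 0.0106). Taking the distance between the mutant and WT means as 100%, the rescued mean kept 45.6% of the increase, with the single rescued pools at 47.0%, 61.4% and 28.5%.

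Cfl2, the gene for the cofilin that prevails in muscle, had log2 intensities of 12.38, 12.36 and 12.43 in the mutant pools, against 11.21, 11.24 and 11.16 in the WT pools. Every mutant pool was far above every WT pool, and the replicates of each group lay close together. The log2 difference was 1.19 (SE 0.09, 95% interval 0.98 to 1.39, adjusted p = 1.12e-05), above that of 97.8% of all genes. The rescued pools had 11.59, 11.65 and 11.29, all below the mutant pools and all above the WT pools. Rescued corneas had 1.84-fold less Cfl2 signal than mutant corneas (log2 difference −0.88, SE 0.09, adjusted p = 0.000313). Against WT the rescued level was 1.24-fold higher, which did not pass the test (log2 difference 0.31, 95% interval 0.10 to 0.51, adjusted p = 0.0559). Without rescued replicate 3, the lowest pool, it passed, with a log2 difference of 0.42 (adjusted p = 0.00469). The rescued mean kept 25.8% of the increase, and the pools kept 32.8%, 37.4% and 7.08%. Whether Cfl2 and Cfl1 differ in the share kept was not tested, and intensities of different probe sets are not levels that can be compared between genes.

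The rescued pools differed among themselves in the same order for the 3 genes. Replicate 3, with the lowest Srf, also had the lowest Cfl1 and Cfl2, and replicate 2 had the highest of each. Some other values had that order. The mean of the smooth muscle and pericyte markers was 8.69, 8.97 and 8.55 in rescued replicates 1, 2 and 3. Several of these markers are known SRF targets. Wdr1 and Krt14 also had their highest value in replicate 2 and their lowest in replicate 3. Other values did not have it: Cap2 and the mean of the blood endothelial markers were lowest in replicate 1, and Cap1 was highest there. Whether the order is particular to Srf, Cfl1 and Cfl2 was not tested over all genes. In the mutant pools Srf and Cfl1 both fell from replicate 1 to 2 to 3, but Cfl2 was highest in replicate 3. The WT pools shared no order over the 3 genes. A correlation over all pools is not given, because the groups form separate clusters and each holds 3 pools.

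**Figure D2:**
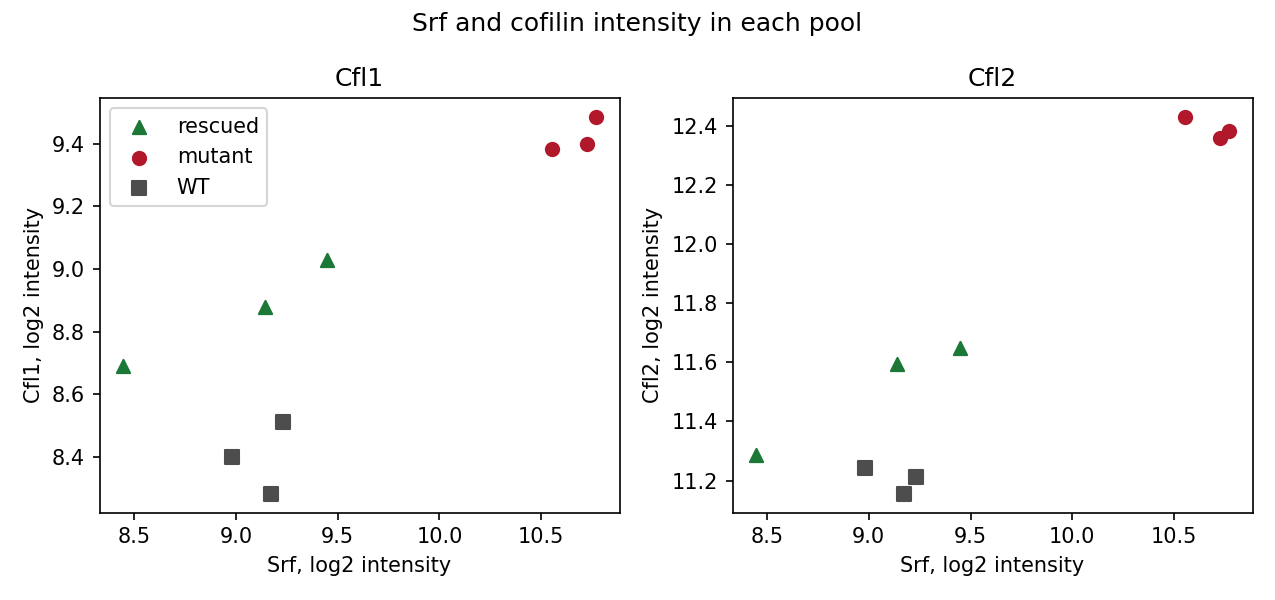
Log2 intensity of Cfl1 (left) and Cfl2 (right) against that of Srf, 1 point for each of the 9 pools (triangles rescued, circles mutant, squares WT). The mutant pools stand apart at the upper right, and rescued and WT pools share a range of Srf while every rescued pool is above every WT pool in both cofilin genes.

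The sequence before the start of the 3 actin-binding genes is shown here. Cfl1 and Cfl2 were lower in the corneas with Srf ablated, and SRF is known to bind the CArG box. Whether SRF binds these sequences or directly controls these genes was not tested. Each line gives the 250 bases before the gene's start, from RefSeq on GRCm38.p6, read 5′ to 3′ on the gene's strand. Capitals mark a run of 10 letters that differs from the CArG box by 1 letter. The Dstn window is chr2:143915081-143915330 on the plus strand, the Cfl1 window chr19:5490205-5490454 on the plus strand, and the Cfl2 window chr12:54862878-54863127 on the minus strand.
Dstn: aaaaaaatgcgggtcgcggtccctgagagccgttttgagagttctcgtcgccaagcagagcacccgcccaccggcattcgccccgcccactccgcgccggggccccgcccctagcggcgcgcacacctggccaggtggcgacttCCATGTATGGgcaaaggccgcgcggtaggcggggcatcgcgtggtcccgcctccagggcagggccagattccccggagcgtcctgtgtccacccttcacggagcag
Cfl1: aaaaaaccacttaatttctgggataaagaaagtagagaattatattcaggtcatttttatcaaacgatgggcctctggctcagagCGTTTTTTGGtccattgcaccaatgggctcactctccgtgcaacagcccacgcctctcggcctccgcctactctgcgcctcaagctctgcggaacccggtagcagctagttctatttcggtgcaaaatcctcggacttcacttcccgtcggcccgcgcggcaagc
Cfl2: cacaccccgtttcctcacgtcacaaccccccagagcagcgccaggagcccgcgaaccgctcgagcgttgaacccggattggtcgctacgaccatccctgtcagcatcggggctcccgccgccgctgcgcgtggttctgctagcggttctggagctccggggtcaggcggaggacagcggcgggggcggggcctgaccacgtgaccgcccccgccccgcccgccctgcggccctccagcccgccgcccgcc

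The search read both strands, since the box is its own reverse complement. A full CArG box was found in none of the 14 windows of the 9 genes, and 1.47% of all 32851 promoter windows held one. With 1 letter off, a match was found in 5 of the 14 windows, for Dstn, Cfl1, Limk2, Ssh3 and Tesk1. Of all windows, 18.6% held a full or such a near match. The Dstn match began 106 bases before the start and the Cfl1 match 165 bases before it. The Cfl2 window, and the windows of Ssh1 and Ssh2, held neither kind, which says only that these letters are not in these 250 bases. G and C made up 69.6% of the Dstn window, 52.0% of the Cfl1 window and 74.4% of the Cfl2 window.

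The kinase genes showed no called difference. Limk1, for the kinase that RhoA and Rac1 signalling activates, had 8.39, 8.37 and 8.41 in the rescued pools, 8.38, 8.27 and 8.35 in the mutant pools and 8.39, 8.31 and 8.16 in the WT pools. All 3 groups overlapped. The mutant level was 1.03-fold the WT level, with a 95% interval from 0.926-fold to 1.15-fold (adjusted p = 0.672). Limk2, its paralog, had 9.85, 10.04 and 10.03 in rescued, 10.00, 10.04 and 9.93 in mutant and 10.20, 10.16 and 10.18 in WT pools. Every rescued and mutant pool lay below every WT pool. The log2 differences from WT were −0.19 in the mutant (95% interval −0.35 to −0.04, adjusted p = 0.063) and −0.21 in the rescued corneas (95% interval −0.36 to −0.05, adjusted p = 0.0785), and neither passed the test. The mutant difference passed when rescued replicate 1 was left out of the fit (adjusted p = 0.0391) or when dim genes were not tested (adjusted p = 0.0286 with genes at or above the median intensity). Limk2 in the rescued and mutant pools differed by −0.02 (95% interval −0.17 to 0.14, adjusted p = 0.907).

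Tesk1, for a kinase that acts on cofilin downstream of integrins, had 7.76, 8.12 and 8.11 in rescued, 7.97, 8.06 and 8.03 in mutant and 7.97, 7.87 and 7.93 in WT pools. The mutant pools lay just above the WT pools, and the rescued pools reached beyond both groups at either end. The mutant minus WT difference was 0.10 (95% interval −0.12 to 0.31, adjusted p = 0.505). A further row that the annotation assigns to Tesk1 together with another gene was not used.

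Ssh1, for the slingshot phosphatase that binds actin filaments and is activated by them, had 8.93, 9.02 and 9.06 in the mutant pools, against 8.59, 8.63 and 8.53 in the WT pools. The log2 difference was 0.42 (SE 0.07, adjusted p = 0.000934) and the groups did not overlap. The rescued pools had 8.75, 8.90 and 8.79, between the other groups. They were 1.17-fold higher than WT (log2 difference 0.23, 95% interval 0.08 to 0.38, adjusted p = 0.049). That call was lost in each of the 9 fits that left out 1 array: without rescued replicate 2 the difference was 0.19 (adjusted p = 0.16), and without WT replicate 3 it was 0.21 (adjusted p = 0.134). Against the mutant the rescued difference was −0.19 (95% interval −0.34 to −0.04, adjusted p = 0.0937). A second, dimmer Ssh1 row (probe set 17548413, group means between 7.08 and 7.27) was not called. Its mutant minus WT difference was 0.05 (95% interval −0.12 to 0.23, adjusted p = 0.715 over all rows). Averaging the Ssh1 rows gave 0.24 (adjusted p = 0.024). The rows of Ssh1 thus disagree, and its increase rests on the brighter one.

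Ssh2, a second slingshot phosphatase, had 10.04, 10.08 and 9.99 in the mutant pools, against 9.62, 9.68 and 9.52 in the WT pools. The log2 difference was 0.43 (SE 0.06, 95% interval 0.29 to 0.57, adjusted p = 0.000542). In the rescued pools Ssh2 was at 9.92, 9.93 and 9.93, above every WT pool and below every mutant pool. The rescued level was 1.24-fold higher than WT (log2 difference 0.32, SE 0.06, adjusted p = 0.00912). It differed from the mutant by −0.11 (95% interval −0.25 to 0.03, adjusted p = 0.297). The rescued mean kept 74.0% of the mutant increase of Ssh2, with the pools at 71.9%, 75.9% and 74.2%. For Ssh1 it kept 54.6%, with the pools at 40.1%, 75.8% and 47.95%.

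Ssh3, for the remaining slingshot phosphatase, had 9.97, 10.16 and 9.89 in rescued, 9.96, 10.12 and 9.95 in mutant and 9.85, 9.86 and 9.85 in WT pools. The WT pools lay close together and below all others. The differences from WT were 0.16 in the mutant (95% interval −0.02 to 0.34, adjusted p = 0.179) and 0.15 in the rescued corneas (95% interval −0.03 to 0.33, adjusted p = 0.262). Rescued and mutant pools overlapped, with a difference of 0.00 (95% interval −0.18 to 0.18, adjusted p = 0.986).

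**Figure D3:**
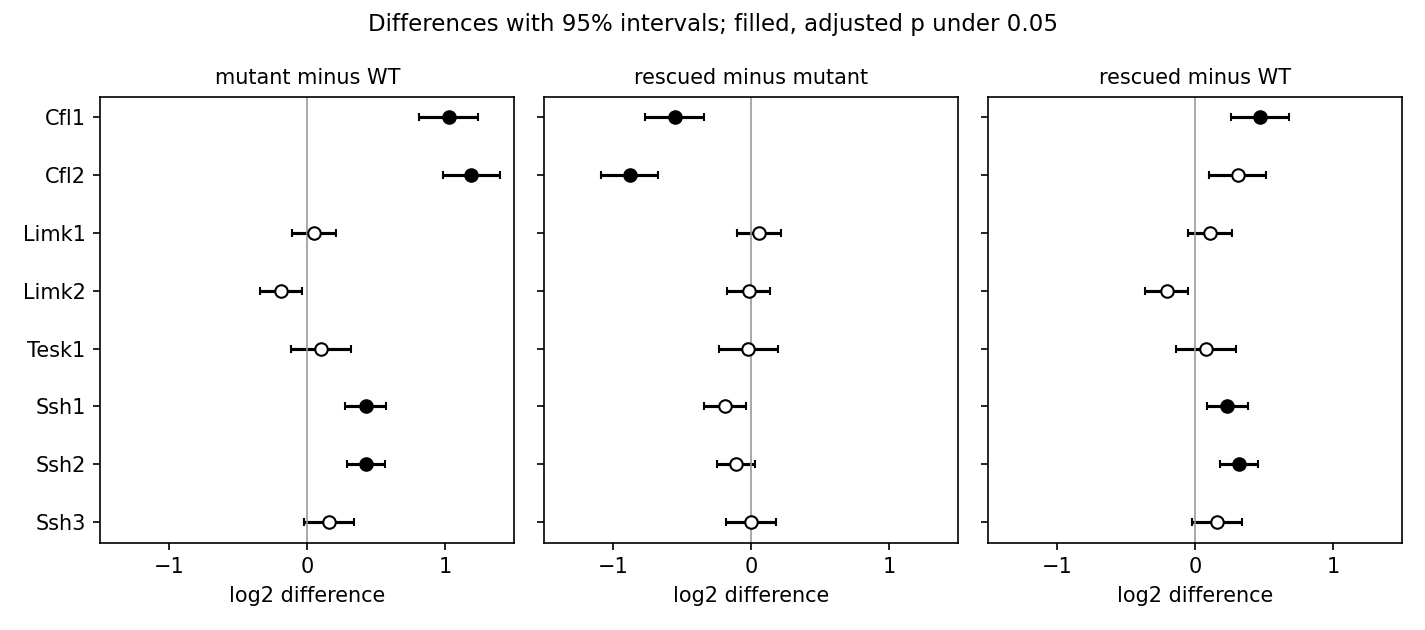
Log2 difference of the 8 genes other than Dstn in the 3 comparisons, with 95% intervals of the moderated fit and filled points where the adjusted p is under 0.05. Cfl1, Cfl2, Ssh1 and Ssh2 are filled between mutant and WT, Cfl1 and Cfl2 between rescued and mutant, and Cfl1, Ssh1 and Ssh2 between rescued and WT.

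Other genes of the pathway were read in 3 lists. Of 6 genes for proteins that work with cofilin in taking filaments apart, 4 were higher in the mutant than in WT and none was lower. In the rescued corneas 3 of the 6 were lower than in the mutant and none was higher. Of all genes, 15.1% were higher and 16.5% lower in the mutant than in WT, and 6.88% were lower and 6.46% higher in rescued than in mutant corneas. Cap2 and Cap1, for cyclase-associated proteins that recharge actin monomers, were 2.13-fold and 1.32-fold higher in the mutant than in WT (adjusted p = 0.000308 and 0.00108). Wdr1, for the cofilin partner AIP1, was 1.40-fold higher (adjusted p = 0.0011) and Coro1a, for a coronin of leukocytes, 1.49-fold higher (adjusted p = 0.00377). In the rescued corneas Wdr1 was at 12.52, 12.61 and 12.31, against 13.01, 13.06 and 13.03 in the mutant, and was 1.46-fold lower (adjusted p = 0.00166). Cap1 was 1.31-fold lower (adjusted p = 0.0038) and Cap2 1.68-fold lower (adjusted p = 0.00821). Against WT, rescued Wdr1 differed by −0.07 (95% interval −0.24 to 0.11) and rescued Cap1 by 0.01 (95% interval −0.14 to 0.16). Coro1b, for a coronin that brings slingshot to actin networks, was the single list member called between rescued and WT, 1.24-fold higher (adjusted p = 0.0181). That is 16.7% of the list, beside 13.7% of all genes called in that comparison (6.28% higher and 7.43% lower). Over the 6 genes the median log2 difference was 0.44 between mutant and WT and −0.31 between rescued and mutant, beside −0.02 and 0.00 for all genes.

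Of 6 measured genes for other proteins with an ADF-homology domain, 3 were higher in the mutant than in WT and none was lower, and 3 were lower in the rescued corneas than in the mutant and none was higher. The shares of all genes called are those given for the preceding list, and these comparisons share the mutant arrays. Cotl1, for the filament-binding coactosin-like protein, had 10.93, 11.05 and 10.91 in the mutant pools, against 9.62, 9.79 and 9.63 in the WT pools. It was 2.43-fold higher in the mutant than in WT (adjusted p = 3.16e-06) and 1.94-fold lower in rescued than in mutant corneas (adjusted p = 0.000106). Twf2 and Twf1, for twinfilins that bind actin monomers and filament ends, were 1.61-fold and 1.31-fold higher in the mutant (adjusted p = 0.000218 and 0.000672) and 1.29-fold and 1.22-fold lower in the rescued corneas (adjusted p = 0.02 and 0.0117). Dbnl, for drebrin-like protein, and Gmfb, for a regulator of actin branches, had mutant minus WT differences of −0.13 and −0.06 and were not called. Between rescued and WT, Cotl1 and Twf2 were 1.26-fold and 1.24-fold higher (adjusted p = 0.0243 and 0.0393). They are 2 of the 6 genes, beside 6.28% of all genes higher, and none of the 6 was lower, beside 7.43%. The median log2 difference of the 6 genes was 0.21 between mutant and WT, beside −0.02 for all genes.

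On the side that controls the kinases and phosphatases, 5 of 19 measured genes were higher in the mutant than in WT and none was lower, and the median log2 difference was 0.03. The 5 are 26.3% of the list, which is below the 31.6% of all genes called in that comparison (15.1% higher and 16.5% lower). Prkd1, for protein kinase D1, which inactivates slingshot, was at 7.26, 7.64 and 7.50 in the mutant, against 6.29, 6.32 and 6.03 in WT. It was at least 2.38-fold higher in the mutant (adjusted p = 3.36e-05) and fell in rescued corneas by a factor of at least 2.00 against the mutant (adjusted p = 0.000599). Ywhah and Ywhag, for 14-3-3 proteins, a family that binds phosphorylated cofilin and slingshot, were 1.77-fold and 1.32-fold higher (adjusted p = 2.42e-05 and 0.00178). Cdc42bpb, for a kinase that activates LIM kinases, and Rac1, for a GTPase upstream of them, were 1.25-fold and 1.18-fold higher (adjusted p = 0.00418 and 0.013). Of the 19 genes, 2 (Prkd1 and Ywhah) were lower and 1 (Pak4) was higher in rescued corneas than in the mutant. These are 15.8% of the list, beside 13.3% of all genes called. Against WT, 2 of the 19 (Ywhah and Rac1) were higher and 2 (Pdxp and Cdc42bpa) lower, 21.1% beside 13.7% of all genes. Pak4, Pdxp and Cdc42bpa were named after their values were seen. Pdxp, for the cofilin phosphatase chronophin, was 1.23-fold lower in rescued corneas than in WT (adjusted p = 0.0434). Pak4 was 1.19-fold higher in rescued than in mutant corneas (adjusted p = 0.0498). Neither passed the F test over the 3 groups (adjusted p = 0.0645 for Pak4 and 0.057 for Pdxp).

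**Figure D4:**
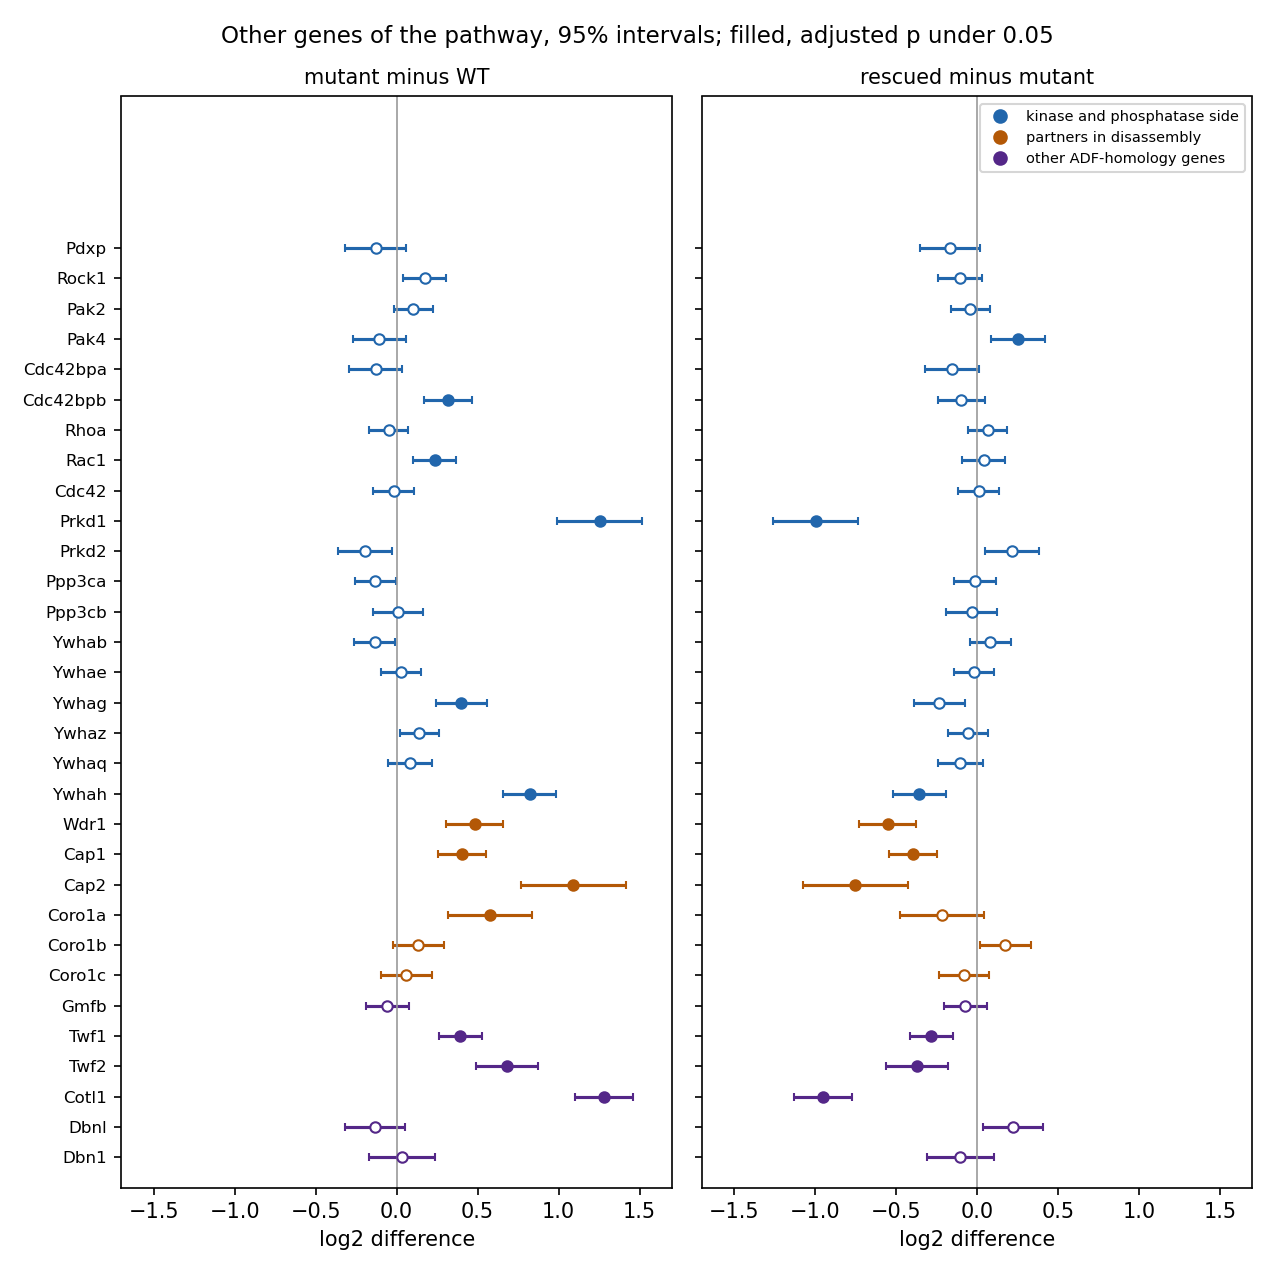
Log2 differences with 95% intervals for the measured genes of the 3 lists, mutant minus WT on the left and rescued minus mutant on the right, with filled points at an adjusted p under 0.05. The called genes lie on the positive side between mutant and WT, and all called genes but Pak4 lie on the negative side between rescued and mutant.

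Markers of several cell types differed between the groups. Beside the counts below, 15.1% of all genes were called higher and 16.5% lower in the mutant than in WT. Between rescued and mutant corneas the shares were 6.46% higher and 6.88% lower. Of 7 markers of smooth muscle and pericytes, 6 were higher in the mutant than in WT and 6 were lower in rescued than in mutant corneas. Their mean log2 intensity was 8.55 to 8.97 in rescued, 9.71 to 10.2 in mutant and 7.11 to 7.13 in WT pools. Several of them, Acta2, Cnn1 and Tagln among them, are also known SRF targets. Blood endothelial markers, of which 5 of 6 were higher and 1 lower in the mutant than in WT, were at 7.83 to 8.19 in rescued, 8.30 to 8.83 in mutant and 6.64 to 6.72 in WT pools, with 4 of 6 lower in rescued than in mutant corneas. Leukocyte markers, which include Coro1a and of which 6 of 7 were higher and 1 lower in the mutant, were at 8.45 to 8.74 in rescued, 8.46 to 8.87 in mutant and 7.67 to 7.79 in WT pools. Between rescued and mutant corneas none of the 7 was called lower, 1 (Itgam) was higher and 6 were not called. The part of these cells in the values of Cfl1, Cfl2, Ssh1 and Ssh2 was not tested. Skeletal muscle markers, of interest because Cfl2 prevails in muscle, had none of 9 higher and 1, Ckm, lower in the mutant than in WT. Their mean was 6.30 to 6.48 in rescued, 6.28 to 6.37 in mutant and 6.28 to 6.50 in WT pools, below the median of all rows, and 6 of the 9 lay below that median in rescued and mutant corneas and 5 in WT. The markers of the labelled tissue were present, with Krt12, the cornea keratin gene, at log2 intensities of at least 13.49 in every pool and the keratocyte gene Kera at 12.14 or more. They also differed between the groups. Of 4 epithelial markers, Krt12 and Pax6 were 1.33-fold and 1.60-fold lower in the mutant than in WT, and Krt14 and Cdh1 were 2.33-fold and 1.36-fold higher (adjusted p = 0.000261, 0.000181, 2.08e-06 and 0.000316). All 4 were called in the opposite direction between rescued and mutant corneas, a comparison that shares the mutant arrays. Of 6 keratocyte markers 4 were lower in the mutant than in WT, Kera by 1.34-fold (adjusted p = 0.0259). Between rescued and mutant only Aldh3a1, 1 of the 6, was higher (1.35-fold, adjusted p = 0.000841) and none was lower. Of 5 corneal endothelial markers 4 were lower in the mutant and 1, Car12, was 5.40-fold higher (adjusted p = 5.5e-06). Their part in the values of the cofilin and phosphatase genes was not tested. Itgam, Pax6, Krt14, Cdh1, Aldh3a1 and Car12 were named after their values were seen. Lens markers were lower in the mutant in 4 of 4 genes, with means of 8.35 to 8.91 in rescued, 8.57 to 10.1 in mutant and 10.46 to 10.95 in WT pools.

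The genes whose values over the 9 arrays were most like those of Cfl2 were Abracl (Pearson r = 0.997), M6pr (0.996), Ttc37 (0.996), Fbxl5 (0.994) and Msrb3 (0.994). For Cfl1 they were Ano6 (0.997), Il1rn (0.995), Gjb2 (0.995), Lgi2 (0.995) and Septin9 (0.995). For Dstn they were Ankrd34c (0.994), Ooep (0.993), Enpep (0.993), Bcl7a (0.993) and Piezo2 (0.992). The arrays fall into 3 groups, so these correlations mostly restate the order and spacing of 3 group means. Abracl, for example, had mean log2 intensities of 10.2 in rescued, 11.3 in mutant and 9.81 in WT pools, and Ano6 had 9.26 in rescued, 9.94 in mutant and 8.69 in WT pools.

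Of the 10 genes beside Dstn in the reference gene table, 5 on each side, 4 were measured. Bfsp1, for a lens filament protein, was not called, with a mutant minus WT difference of 0.13 (95% interval −0.13 to 0.40, adjusted p = 0.443). Rrbp1, for a ribosome-binding protein, was 1.16-fold higher in the mutant (adjusted p = 0.0251) and not called between rescued and WT (log2 difference 0.10, adjusted p = 0.348). Banf2 and the pseudogene Gm11686 were below the median of all rows in every group and were not called in any comparison.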

How the data were processed

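Per the labels' protocols, Trizol RNA of whole corneas was amplified and biotin-labelled with kits from Ambion (WT Expression) and Affymetrix (WT Terminal Labeling), and each pool had its own single-colour array. The authors deposited log2 intensities in 1 value table of 41345 rows. Base 2 was inferred from their range, 2.14 to 14.3. The sources used here do not give the normalisation method, its software or the genome build of the array annotation. Array medians lay between 6.75 and 6.78. Of the rows, 23521 have exactly 1 symbol, 1814 have several and 16010 are not listed in the annotation.

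The 22180 genes were fitted over all 9 arrays with limma 3.58.1 in R 4.3.3 (lmFit, contrasts and eBayes, two-sided), and p-values were adjusted by Benjamini-Hochberg over all genes. SEs and intervals are moderated. No dim gene was left out, and a fold whose lower group lies below the median of all rows is given as a lower bound. Replicates are separate pools, so p-values measure the spread between pools, and their number limits the precision. Tables were handled in Python 3.11.15 and figures drawn with matplotlib 3.10.9. Promoters came from RefSeq.

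The members and lists were chosen with earlier results of these data known. The rule named all 9 members, Srf, up to 5 genes of each pathway list with the largest absolute mutant minus WT difference, the 5 genes most like each ADF/cofilin gene and the neighbours of Dstn. Tesk2, Rock2, Pak1, Gmfg and Krt5 were not analysed here. The 22 alternatives covered normalisation, filters, rows, model options, a covariate for Y-linked expression, a replicate block, a stricter threshold and leaving out each array. Deviations of same-numbered arrays of different groups correlated above r = 0.1 in none of 9 pairs (r from −0.016 to 0.063). The numbers were therefore not taken to pair the pools.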

Additional observations from a re-analysis of the deposited data

How the results depend on the processing

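Over the 22 alternatives no member reversed a called direction. Dstn, Cfl1, Cfl2, Ssh1 and Ssh2 between mutant and WT, and Cfl1 and Cfl2 between rescued and mutant, passed an adjusted p under 0.05 in all of them. Between rescued and WT, Ssh2 passed in all of them, Cfl1 in 21 (adjusted p from 0.00315 to 0.04; at the threshold of 0.01 it did not pass), Cfl2 in 5 (adjusted p from 0.00469 to 0.18) and Ssh1 in 6 (adjusted p from 0.0195 to 0.16). Limk2 passed in 4 between mutant and WT (adjusted p from 0.026 to 0.185) and in 2 between rescued and WT. At an adjusted p under 0.01, 1420 genes were called between rescued and mutant, against 2959 at 0.05, and 1374 between rescued and WT, against 3042, with 2 members in place of 4 in the last comparison. Leaving out 1 array at a time gave 5913 to 6948 called genes between mutant and WT (lowest without WT replicate 2), 1808 to 2795 between rescued and mutant (lowest without rescued replicate 3, then 1871 without mutant replicate 1 and 1931 without mutant replicate 3) and 1812 to 2975 between rescued and WT (lowest without rescued replicate 2). The replicate numbers were not taken to pair the pools. With the numbers as a block, 6687 genes were called between mutant and WT, 2507 between rescued and mutant and 2656 between rescued and WT. Of the members 5, 2 and 3 were called. The block ended the call of Ssh1 between rescued and WT (adjusted p = 0.0645). The pools differed in Y-linked expression, which was not balanced between WT and the other groups. The covariate for it was 5.339 and 5.145 in WT replicates 1 and 3, below the median of all rows, and 9.769 in WT replicate 2. It lay at 7.775 to 9.769 in the mutant pools and 7.163 to 9.113 in the rescued pools. With this covariate, 6140 genes in place of 7004 were called between mutant and WT, 2765 between rescued and mutant, and 2185 between rescued and WT. Ssh1 between rescued and WT then had an adjusted p of 0.141. Genes below the median of all rows may be at background, which limits Dstn in rescued and mutant corneas and Prkd1 in rescued and WT corneas.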
